A study of Mus musculus with 18 samples.

Results

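The genes described here are a set of feedback inhibitors of MAP kinase signalling, made up of the phosphatases Dusp1, Dusp4, Dusp5, Dusp6 and Dusp10, the Sprouty and Spred proteins Spry1, Spry2, Spry4 and Spred1, and Errfi1. Members were found by gene symbol in the platform annotation, from a list of genes drawn up with earlier results of these data known. Of the 10 genes, 9 had at least 1 probe, and these 9 had 15 probes of the 45281 on the array, which name 19057 genes. Spry1 was the gene without a named probe, so no value is given for it. The samples were C2C12 myotubes, the muscle fibre-like cells that form when a mouse myoblast line is grown to confluence and kept in low serum. Cultures in DMEM with 2% horse serum received the synthetic glucocorticoid dexamethasone (Dex) at 1 uM or ethanol, its vehicle, at 0.01% of the medium volume. RNA was taken after 6 h (4 Dex and 4 ethanol arrays) or 24 h (5 Dex and 5 ethanol arrays) and hybridised to Illumina mouseWG-6 bead arrays. The labels number samples up to 4 or 5 in a group while the series' design text speaks of triplicates, and no label ties them to separate cultures. The p-values therefore reflect the scatter among these samples alone, and that scatter may be technical.

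Growth factor receptors with tyrosine kinase activity switch on Ras, which signals through Raf and MEK to the MAP kinase ERK, while stress signals reach the related kinases p38 and JNK. Many of the genes that these kinases switch on encode their own inhibitors. Dual-specificity phosphatases remove phosphate from the kinases themselves, Sprouty and Spred proteins act between receptor and Raf, and Errfi1 (also called MIG6) binds the kinase domain of EGFR and its relatives. Glucocorticoids act through the glucocorticoid receptor, a nuclear receptor that works as a transcription factor, and Dusp1 is a long-known target of it in other cells.

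Errfi1 and Dusp1 were higher with Dex than with ethanol at both times, Dusp4 and Dusp6 were lower at both times by at least 1 probe, and no probe of Dusp5, Dusp10, Spry2, Spry4 or Spred1 was called at either time. A probe was called at an adjusted p under 0.05 in a limma fit over all 45281 probes. At 6 h, 4 of the 15 probes were called (26.7%), 2 higher and 2 lower, against 3.04% of all probes, 1.54% higher and 1.5% lower. At 24 h, 6 of the 15 were called (40%), 2 higher and 4 lower, against 6.28% of all probes, 3.18% higher and 3.09% lower. The ranges of Dex and ethanol arrays were disjoint for 5 of the 15 probes at 6 h, against 9.24% of all probes, and for 8 of the 15 at 24 h, against 13.7% of all probes. The probes moved in both directions, and their median log2 fold change was -0.02 at 6 h, against -0.0004 over all probes, and -0.11 at 24 h, against -0.002 over all probes. Probes of 1 gene share their target and are not separate evidence, and 4 of the 9 measured genes held all the calls at each time.

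**Figure D1:**
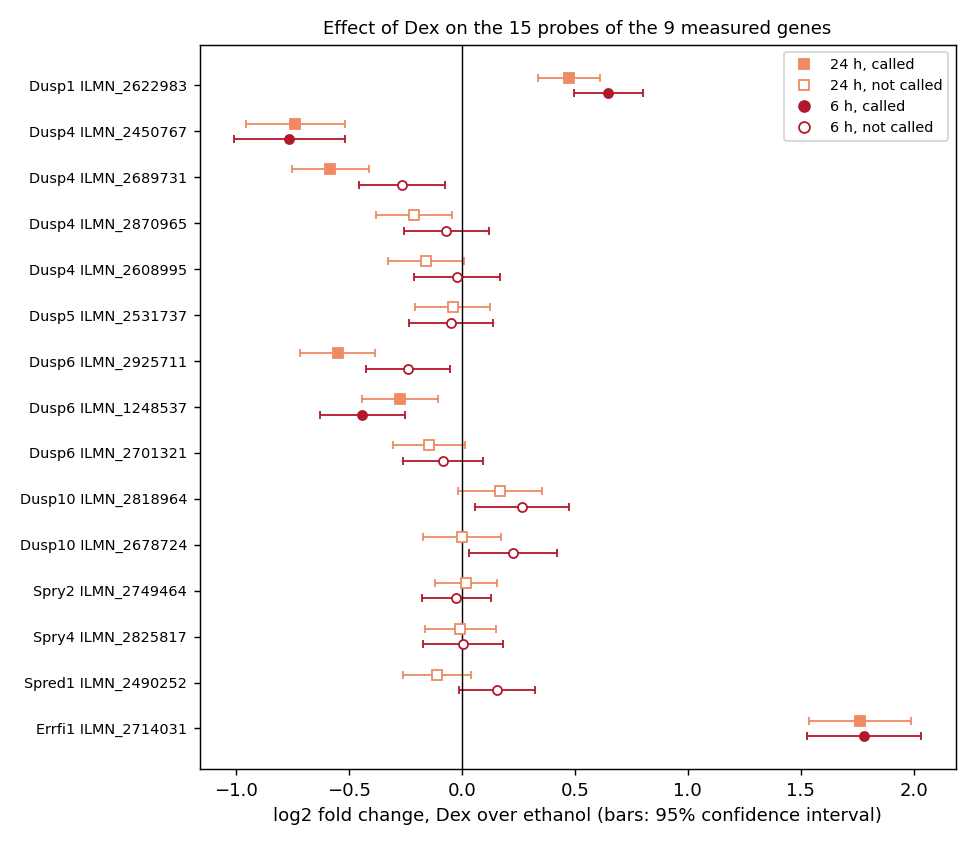
Log2 fold change of Dex over ethanol (horizontal axis) for each of the 15 probes (vertical axis), with bars for the 95% confidence interval. Squares show 24 h and circles 6 h, filled where the probe was called. Errfi1 stands at 1.76 at 24 h and 1.78 at 6 h, Dusp1 also lies right of 0, and the called probes of Dusp4 and Dusp6 lie left of it.

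As a check of the treatment, the glucocorticoid-induced genes Fkbp5, Tsc22d3 and Per1 were higher with Dex at both times, with Fkbp5 at a log2 fold change of 3.93 at 6 h and 3.40 at 24 h. Median intensities of the arrays ranged over 99.8 to 100.4 for the 6 h samples and over 85.2 to 86.8 for the 24 h samples, so the fits compare Dex with ethanol within a time and levels are not set against each other across times. A probe near these medians is dim, and without detection values its place against background is unknown. All 6 measured myotube markers of 7 listed (Myog, Ckm, Acta1, Tnnt3, Tnnc2 and Des) lay above 2 times the array median on all 18 arrays, which none of the 3 myoblast, 3 adipocyte, 3 osteoblast and 2 macrophage markers measured did. The summed level of the 6 myotube markers was 115820 to 120200 in Dex arrays at 6 h, against 116540 to 124730 in ethanol arrays, and 85809 to 95666 in Dex arrays at 24 h, against 89478 to 99315 in ethanol arrays. At 24 h Myog was lower with Dex (log2 fold change -0.32, limma adjusted p 0.038) and Ckm was higher (0.30, limma adjusted p 0.0425), and the part of these differences in the results below was not tested. In such bulk samples fewer cells of a type and less RNA per cell cannot be told apart.

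The promoters of Errfi1 and Dusp1, which rose, and of Dusp6, which fell, are shown. They are the 250 bases before the gene start in RefSeq annotation of GRCm38.p6, written 5′ to 3′ on the gene's strand, and 8 of the 10 genes matched by symbol, with 9 windows in all since Errfi1 had a second start, while Dusp4 and Spry4 did not match. The windows are chr4:150854820-150855069 on the plus strand for Errfi1, chr17:26508473-26508722 on the minus strand for Dusp1 and chr10:99262981-99263230 on the plus strand for Dusp6. Capitals mark matches to TGACGTCA, the cAMP response element, the one motif of the 4 searched that any of the 9 windows held.
Errfi1 promoter: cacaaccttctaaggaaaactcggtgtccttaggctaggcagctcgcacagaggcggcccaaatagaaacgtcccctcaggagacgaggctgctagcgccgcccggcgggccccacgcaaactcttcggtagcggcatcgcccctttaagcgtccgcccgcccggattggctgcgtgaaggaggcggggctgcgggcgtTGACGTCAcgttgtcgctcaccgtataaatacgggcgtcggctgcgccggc
Dusp1 promoter: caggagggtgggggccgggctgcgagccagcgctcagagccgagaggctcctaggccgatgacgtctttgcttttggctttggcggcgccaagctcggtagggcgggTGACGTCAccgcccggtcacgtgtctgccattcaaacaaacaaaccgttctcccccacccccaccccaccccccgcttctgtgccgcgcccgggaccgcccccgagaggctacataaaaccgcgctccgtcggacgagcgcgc
Dusp6 promoter: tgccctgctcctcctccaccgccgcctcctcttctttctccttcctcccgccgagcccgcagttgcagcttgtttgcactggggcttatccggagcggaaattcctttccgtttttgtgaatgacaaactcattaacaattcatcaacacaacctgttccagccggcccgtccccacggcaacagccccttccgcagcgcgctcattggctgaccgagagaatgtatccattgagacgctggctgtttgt

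TGACGTCA reads the same on both strands and is the element bound by CREB and ATF factors. It began 51 bases before the Errfi1 start (position -51) and 143 bases before the Dusp1 start (position -143), and 1.55% of the 32851 promoter windows of the same length held it. The other Errfi1 window, chr4:150853546-150853795 on the plus strand, and the windows of Dusp5, Dusp6, Dusp10, Spred1, Spry1 and Spry2 did not hold these letters. AGAACA, the hexamer repeated in the palindromic glucocorticoid response element, occurs on either strand in 16.1% of all windows and in none of the 9. Neither TGANTCA, the AP-1 site (6.75% of all windows), nor CCGGAA, an ETS core (12% of all windows), was found in the 9 windows on either strand. The letters say nothing of distant sites, where the glucocorticoid receptor often binds. Whether TGACGTCA bears on the response to Dex was not tested, and Dusp4, which also fell, had no window. The GC content of the printed windows was 64.8% for Errfi1, 68.4% for Dusp1 and 56.4% for Dusp6, beside a median of 52.4% over all windows.

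Errfi1 showed the largest change of the set. It encodes a scaffold that blocks the EGFR kinase domain and so limits EGF signalling. At 6 h its probe read 8663, 8752, 8518 and 6932 in Dex arrays, against 2543, 2466, 2046 and 2506 in ethanol arrays. Each Dex array stood far above each ethanol array, and the lowest Dex array was also well apart from the other 3 Dex arrays. The means were 8216 ± 861 with Dex and 2390 ± 232 with ethanol (SD, n = 4 each), a 3.44-fold rise (log2 fold change 1.78, SE 0.12, 95% interval 1.53 to 2.03, limma adjusted p 3.14e-10). This was the 20th largest rise among all probes at 6 h.

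At 24 h the Errfi1 probe read 6894, 7593, 5751, 5765 and 5510 in Dex arrays, against 1582, 1520, 2169, 2060 and 1969 in ethanol arrays. The groups were again far apart, with Dex arrays 1 and 2 above the other Dex arrays and ethanol arrays 1 and 2 below the other ethanol arrays. The means were 6303 ± 900 with Dex and 1860 ± 292 with ethanol (SD, n = 5 each), a 3.40-fold rise (log2 fold change 1.76, SE 0.11, limma adjusted p 3.74e-11) and the 29th largest at that time. Without the arrays numbered 1 and 2 the log2 fold change at 24 h was 1.46 (SE 0.10, limma adjusted p 2.28e-09). The effect at 24 h minus that at 6 h was -0.02 on the log2 scale, with a 95% interval of -0.35 to 0.32, and it was -0.32 without those arrays (limma adjusted p 0.297).

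Dusp1 was the phosphatase among the 10 genes that rose. Its product, MKP-1, is a nuclear enzyme that acts mainly on p38 and JNK and also on ERK. At 6 h its only probe read 7552, 7686, 7931 and 7461 in Dex arrays, against 4939, 4669, 4857 and 5073 in ethanol arrays. The 2 groups were each narrow and did not overlap. The means were 7657 ± 204 with Dex and 4884 ± 169 with ethanol (SD, n = 4 each), a 1.57-fold rise (log2 fold change 0.65, SE 0.07, limma adjusted p 2.52e-06).

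At 24 h Dusp1 read 5349, 5230, 5975, 5651 and 5543 in Dex arrays, against 4206, 4227, 3642, 4110 and 3807 in ethanol arrays. All Dex arrays lay above all ethanol arrays. The rise was 1.39-fold (log2 fold change 0.47, SE 0.07, limma adjusted p 3.37e-05). The effect at 24 h minus that at 6 h was -0.18, with a 95% interval of -0.38 to 0.03, and the difference between times did not pass the test (limma adjusted p 0.5).

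Dusp4 encodes MKP-2, a nuclear phosphatase of ERK, JNK and p38, and its brightest probe fell. At 6 h ILMN_2450767 read 350, 504, 471 and 525 in Dex arrays, against 705, 759, 742 and 908 in ethanol arrays. The groups did not overlap, with 1 low Dex array and 1 high ethanol array. Its log2 fold change was -0.76 (SE 0.12, limma adjusted p 0.000199), or 0.589 times the ethanol level. At 24 h it read 472, 398, 375, 384 and 483 in Dex arrays, against 630, 710, 803, 649 and 717 in ethanol arrays. Again no Dex array reached the lowest ethanol array, and the log2 fold change was -0.74 (SE 0.11, limma adjusted p 5.08e-05), or 0.60 times the ethanol level. The effect at 24 h minus that at 6 h was 0.03 (95% interval -0.30 to 0.355).

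The other Dusp4 probes moved less. ILMN_2689731 read 288, 377, 363 and 395 in Dex arrays at 6 h, against 396, 448, 393 and 466 in ethanol arrays. The highest Dex array lay just above the lowest ethanol array, and the log2 fold change of -0.27 was not called (SE 0.09, limma adjusted p 0.146). Without the lowest Dex array, number 1, it was -0.17. At 24 h it read 361, 343, 335, 373 and 367 in Dex arrays, against 525, 548, 567, 488 and 537 in ethanol arrays. The groups were then wide apart and the probe fell (log2 fold change -0.58, SE 0.08, limma adjusted p 3.79e-05). Its effect at 24 h minus that at 6 h was -0.32 (95% interval -0.57 to -0.06, limma adjusted p 0.269). It was -0.41 without Dex array 1 at 6 h (limma adjusted p 0.0572) and -0.26 without Dex array 4 at 6 h (limma adjusted p 0.325). The times were thus not shown to differ.

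Both remaining Dusp4 probes were dim and not called at either time. ILMN_2870965 had a log2 fold change of -0.07 at 6 h and -0.21 at 24 h (limma adjusted p 0.84 and 0.13), and its arrays at 24 h lay between 148 and 163 with Dex, against 170 to 190 with ethanol. Those groups were apart, by a small gap. ILMN_2608995, which read near the array median, had log2 fold changes of -0.02 at 6 h and -0.16 at 24 h (limma adjusted p 0.963 and 0.296), the value at 24 h being -0.03 without arrays 1 and 2. The 4 Dusp4 estimates were below 0 at both times, of which 1 was called at 6 h and 2 at 24 h.

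Dusp6 encodes MKP-3, a cytoplasmic phosphatase selective for ERK whose own transcription follows ERK activity, and 1 of its 3 probes was called at 6 h and 2 at 24 h, all lower. The brightest probe, ILMN_2925711, read 2255, 2714, 2840 and 2891 in Dex arrays at 6 h, against 2928, 3010, 3104 and 3557 in ethanol arrays. The groups nearly touched, and the log2 fold change of -0.24 was not called (SE 0.09, 95% interval -0.42 to -0.05, limma adjusted p 0.199). Without the lowest Dex array, number 1, it was -0.16. At 24 h it read 1350, 1252, 1458, 1438 and 1362 in Dex arrays, against 2090, 2142, 1855, 1884 and 2068 in ethanol arrays. All Dex arrays were then clearly below all ethanol arrays, and the probe fell to 0.683 times the ethanol level (log2 fold change -0.55, SE 0.08, limma adjusted p 6.33e-05). The effect at 24 h minus that at 6 h was -0.31 (95% interval -0.56 to -0.06), which did not pass the test over all probes (limma adjusted p 0.267). With arrays left out it ranged from -0.39 to -0.21 (limma adjusted p 0.086 to 0.536).

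The second Dusp6 probe, ILMN_1248537, read 249, 289, 287 and 328 in Dex arrays at 6 h, against 351, 363, 422 and 425 in ethanol arrays. The groups were apart and the probe fell (log2 fold change -0.44, SE 0.09, limma adjusted p 0.00483). At 24 h it read 185, 166, 171, 161 and 161 in Dex arrays, against 185, 196, 211, 217 and 208 in ethanol arrays. The highest Dex array (184.5) lay just under the lowest ethanol array (184.9) there, and the log2 fold change was -0.27 (SE 0.08, limma adjusted p 0.0463). That call at 24 h was lost when any of the arrays numbered 2 to 5 was left out in either group (limma adjusted p up to 0.0859), under normexp background correction (0.0613) and with a pseudocount of 16 (0.0544). The third probe, ILMN_2701321, lay between 89.1 and 97.0 with Dex at 24 h, against 99.9 to 108.9 with ethanol. It was dim and not called, with log2 fold changes of -0.08 at 6 h and -0.14 at 24 h (limma adjusted p 0.775 and 0.316).

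**Figure D2:**
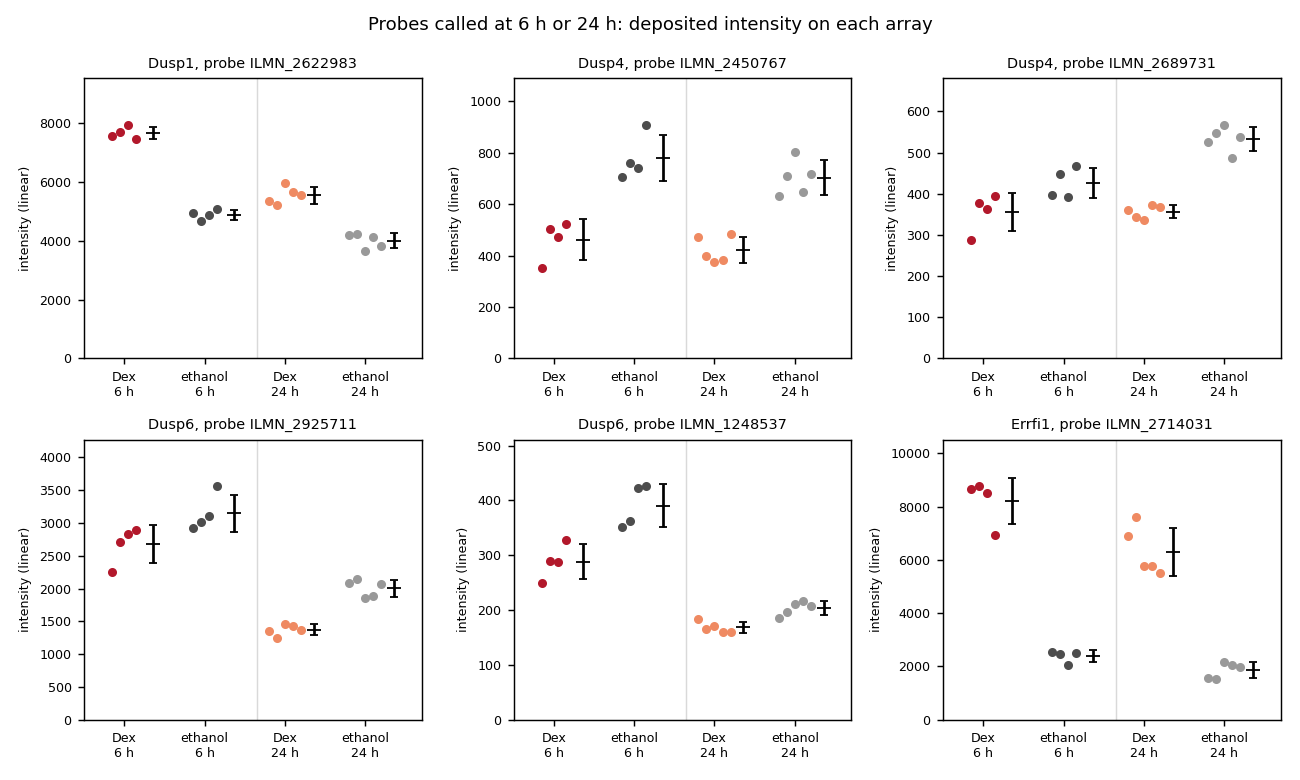
Deposited linear intensity on each array (vertical axis, starting at 0) for the 6 probes called at 6 h or 24 h, by treatment and time, with dots for arrays in order of their number and bars for mean ± SD (n = 4 per group at 6 h, n = 5 at 24 h). Errfi1 and Dusp1 were higher in Dex than in ethanol arrays at both times with no overlap, and ILMN_2450767 of Dusp4 was lower at both with no overlap.

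The remaining phosphatases were not called. Dusp5 encodes a nuclear phosphatase specific for ERK, and its log2 fold change was -0.05 at 6 h (95% interval -0.23 to 0.14, limma adjusted p 0.902) and -0.04 at 24 h (95% interval -0.21 to 0.13, limma adjusted p 0.842). Its arrays lay between 165.9 and 209.7 with Dex at 6 h, against 176.3 to 196.0 with ethanol, and between 147.4 and 178.9 with Dex at 24 h, against 154.2 to 186.4 with ethanol. Groups overlapped at both times, and effects in either direction within those intervals were not excluded. Dusp10 encodes MKP-5, which prefers JNK and p38. Its brighter probe ILMN_2818964 had a log2 fold change of 0.27 at 6 h (95% interval 0.06 to 0.47, limma adjusted p 0.206) and of 0.17 at 24 h (95% interval -0.02 to 0.36, limma adjusted p 0.313). ILMN_2678724 gave 0.23 at 6 h (95% interval 0.03 to 0.42, limma adjusted p 0.263) and 0.0025 at 24 h (95% interval -0.17 to 0.18). Both Dusp10 probes had intervals above 0 at 6 h before adjustment, with overlapping groups, and ILMN_2678724 stood at 0.15 at 6 h without Dex array 4.

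Of the Sprouty and Spred members, Spred1 was the one well above the array median. It encodes a membrane protein that brings neurofibromin to Ras and so limits its activation. Spred1 read 916, 947, 1071 and 1134 in Dex arrays at 6 h, against 926, 871, 978 and 868 in ethanol arrays. The groups overlapped, and the log2 fold change was 0.16 (95% interval -0.01 to 0.33, limma adjusted p 0.442), or 0.10 without Dex array 4. At 24 h it read 568, 528, 591, 548 and 503 in Dex arrays, against 574, 586, 562, 605 and 622 in ethanol arrays. These overlapped too, with a log2 fold change of -0.11 (95% interval -0.26 to 0.04, limma adjusted p 0.454). The effect at 24 h minus that at 6 h was -0.26 (95% interval -0.49 to -0.04), which was not called (limma adjusted p 0.312).

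Spry2 and Spry4 encode inhibitors that are recruited to the membrane after growth factor stimulation, and both were dim. Spry2 arrays lay between 88.3 and 96.3 with Dex at 6 h, against 91.6 to 97.3 with ethanol, and between 71.2 and 81.8 with Dex at 24 h, against 69.9 to 81.3 with ethanol. These ranges lie below the array medians and overlap almost fully. The log2 fold change of Spry2 was -0.02 at 6 h (95% interval -0.18 to 0.13) and 0.02 at 24 h (95% interval -0.12 to 0.15). Spry4 arrays lay between 107.4 and 120.5 with Dex at 6 h, against 105.4 to 123.0 with ethanol, and between 87.9 and 110.3 with Dex at 24 h, against 93.5 to 109.3 with ethanol. Its log2 fold change was 0.01 at 6 h (95% interval -0.17 to 0.18) and -0.01 at 24 h (95% interval -0.16 to 0.15). How much of an intensity this near the array median is background is unknown, so for both genes the result is that no change was detectable, not that none occurred.

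**Figure D3:**
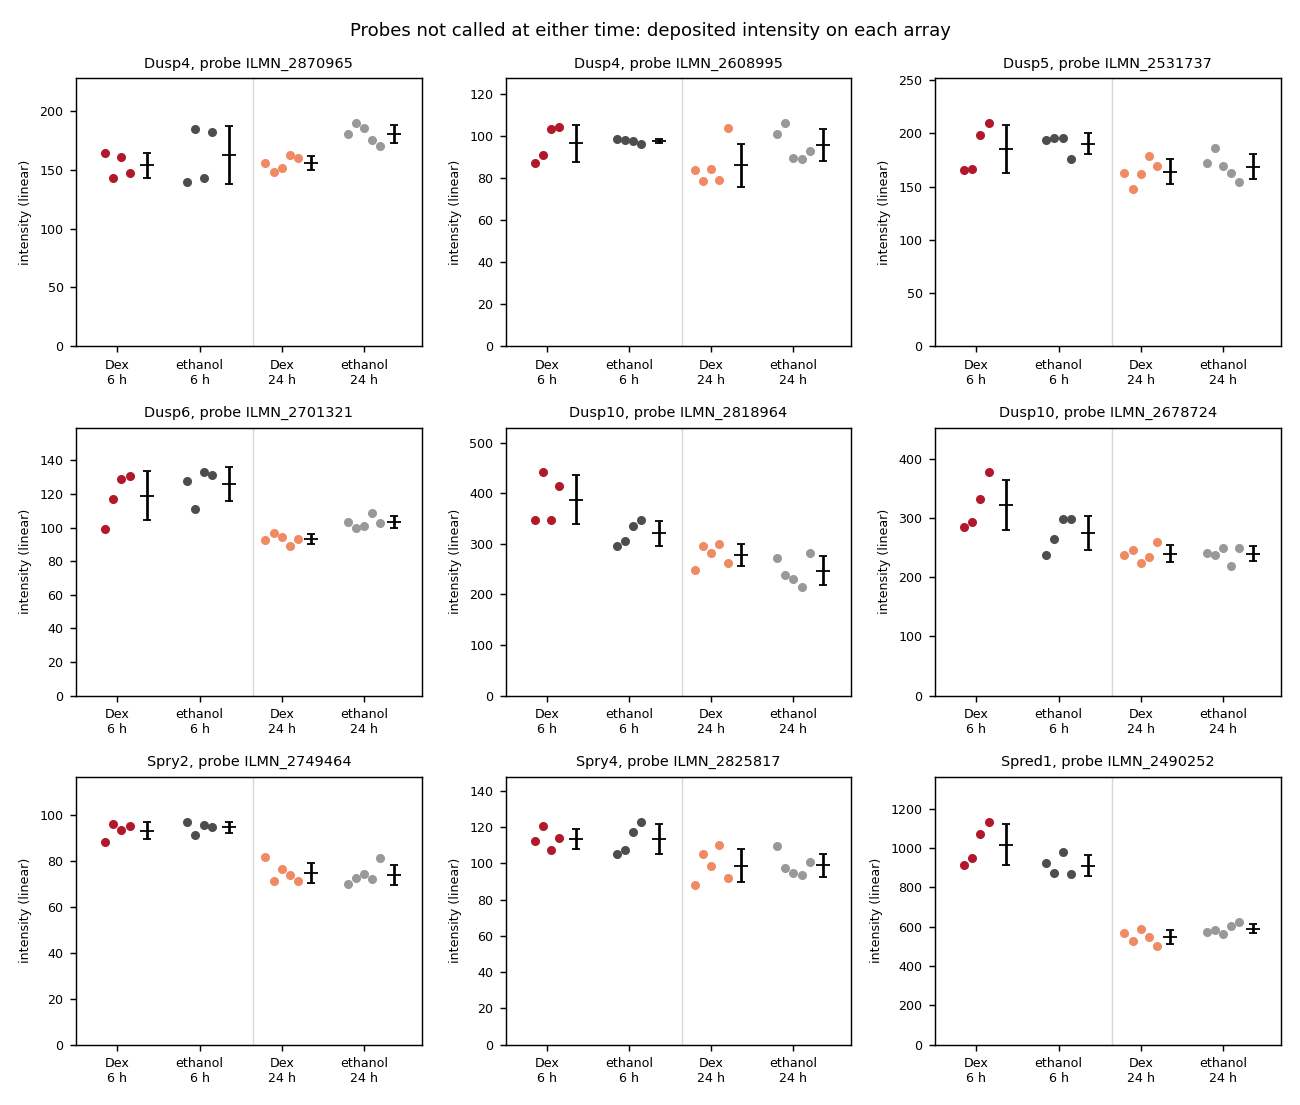
Deposited linear intensity on each array (vertical axis, starting at 0) for the 9 probes called at neither time, by treatment and time, with dots for arrays and bars for mean ± SD (n = 4 per group at 6 h, n = 5 at 24 h). Dex and ethanol arrays overlap in most panels, and at 24 h they are apart for ILMN_2870965 of Dusp4 and ILMN_2701321 of Dusp6.

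Whether the effect of Dex differed between the times was tested as an interaction. None of the 15 probes was called by limma, against 0.819% of all probes. The 95% intervals of ILMN_2689731 of Dusp4, ILMN_2925711 of Dusp6 and Spred1 lay below 0. Those intervals are not adjusted for the number of probes tested, and the share of all probes with such intervals is not given here. The median of the 15 differences was -0.10, against -0.0017 over all probes. A different response at 24 h than at 6 h was thus not shown for any member.

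**Figure D4:**
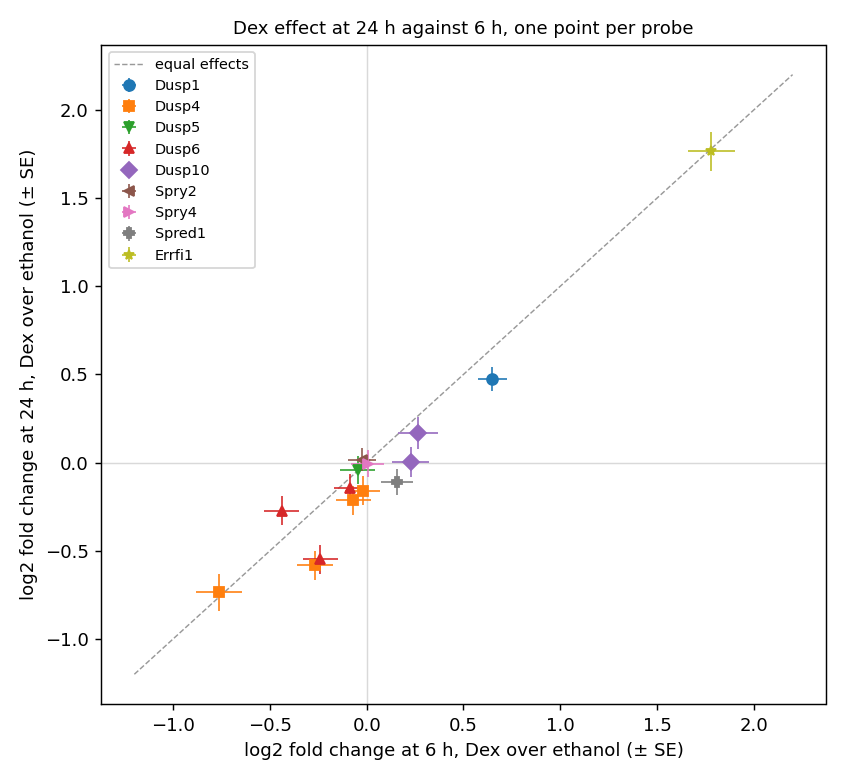
Log2 fold change of Dex over ethanol at 24 h (vertical axis) against that at 6 h (horizontal axis), 1 point per probe with bars of ± SE and a dashed line of equal effects. Errfi1, with all arrays, lies close to the line at 1.76 at 24 h and 1.78 at 6 h, and Dusp1 and 1 Dusp4 probe lie near it on opposite sides of 0.

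Other genes of the pathway were then set beside the members, each by its brightest probe. At 6 h 2.41% of the 19057 named genes were higher and 1.93% lower with Dex, and at 24 h 4.34% were higher and 4.23% lower. The median log2 fold change over these genes was 0.003 at 6 h and -0.0001 at 24 h. Among 13 other MAP kinase and dual-specificity phosphatases, 2 were higher and none lower at each time, with a list median of -0.04 at 6 h and 0.02 at 24 h. Dusp2, a nuclear phosphatase of activated immune cells, rose by a log2 fold change of 1.14 at 6 h (limma adjusted p 9.52e-05) and 0.71 at 24 h (limma adjusted p 0.00374). Dusp7, a cytoplasmic ERK phosphatase of the same subfamily as Dusp6, rose by 0.48 at 6 h (limma adjusted p 0.00393) and 0.32 at 24 h (limma adjusted p 0.0257). The 3 further Sprouty and Spred genes had no call at either time by limma, and no p under 0.05 before adjustment. Spred2 stood at -0.15 and Spred3 at 0.01 at 6 h. All 3 were dim, with group means of 94.6 to 110.75 at 6 h and 83.18 to 90.5 at 24 h, near the array medians. A change in them may thus have gone undetected.

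Upstream of the inhibitors, most ligands, receptors and core kinases were not called. Of 11 measured ErbB receptors and ligands, 1 was lower and none higher at each time, with medians of -0.01 at 6 h and -0.06 at 24 h. That gene was Hbegf, a ligand of EGFR, which fell by 0.70 at 6 h (limma adjusted p 0.000611) and by 0.50 at 24 h (limma adjusted p 0.00434) on the log2 scale. Erbb2, a receptor kinase that Errfi1 also binds, stood at 0.22 at 6 h (limma adjusted p 0.258), and Nrg1, a neuregulin ligand of the ErbB family, at -0.20 at 24 h (limma adjusted p 0.167). Of 11 FGF receptors and ligands, 1 was higher at 6 h and none at 24 h, and medians were 0.08 at 6 h and 0.04 at 24 h. Fgf10, a secreted ligand, was that gene, with 0.64 at 6 h (limma adjusted p 0.000136) and 0.265 at 24 h (limma adjusted p 0.0717). The FGF receptors next to it by p stood at 0.29 (Fgfr2) at 6 h and 0.24 (Fgfrl1) at 24 h and were not called. Of 12 measured genes of the Ras to ERK core, 1 was lower at 6 h and none at 24 h, and medians were 0.01 at 6 h and -0.05 at 24 h. It was Map2k1, which encodes the ERK kinase MEK1, with -0.34 at 6 h (limma adjusted p 0.0166). The adaptor Shc1 at 6 h (-0.16), and the adaptor Gab1 (0.22) and the phosphatase Ptpn11 (-0.19) at 24 h, were not called. Several uncalled genes of the ErbB, FGF and core lists were dim, near the array medians, among them Braf, Tgfa and Ereg. Their means in ethanol arrays at 6 h were 93.4, 97.1 and 83.5. A change in such dim genes may thus have gone undetected.

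Among 10 measured p38 and JNK kinases and their activators, 1 was higher at 6 h, and 2 were higher and 1 lower at 24 h, with list medians of 0.07 at 6 h and -0.10 at 24 h. Mapk14, which encodes p38 alpha, a substrate of the Dusp1 product, rose by 0.60 at 6 h (limma adjusted p 0.000172) and by 0.65 at 24 h (limma adjusted p 8.25e-06). Mapk12, the muscle-rich p38 gamma, was at 0.19 at 6 h (limma adjusted p 0.221) and rose by 0.37 at 24 h (limma adjusted p 0.000795). The lower gene at 24 h was Mapk10, which encodes JNK3 and read 71.9 ± 4.42 with Dex and 88.9 ± 6.75 with ethanol (SD, n = 5 each), near the array median (log2 fold change -0.30, limma adjusted p 0.0103).

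Several genes that ERK signalling is known to induce fell. Of 13 measured, 4 were lower at 6 h and 6 at 24 h, with none higher at either time, and the list median was -0.11 at 6 h and -0.32 at 24 h. The remaining 9 at 6 h and 7 at 24 h were not called and lay on both sides of 0. At 6 h these included Ccnd1 at 0.52, Fos at 0.21, Myc at 0.16, Etv1 at -0.24 and Etv4 at -0.12. At 24 h Ccnd1 stood at 0.30, Fos at 0.09 and Etv4 at -0.33. Egr2, a zinc finger transcription factor, read 297 ± 33.9 with Dex and 867 ± 99.5 with ethanol at 6 h (SD, n = 4 each), and fell by 1.55 on the log2 scale (limma adjusted p 2.06e-10). At 24 h Egr2 fell by 1.05 (limma adjusted p 1.94e-08), and Egr3, of the same family, fell by 1.52 (limma adjusted p 8.82e-07). Ier3, an early response gene linked to ERK, read 1579 ± 222 with Dex and 3025 ± 523 with ethanol at 6 h (SD, n = 4 each) and fell by 0.93 (limma adjusted p 1.07e-05). The further calls were Egr1 and Egr3 at 6 h, and Ier3, Egr1, Etv5 and Etv1 at 24 h, the last at a limma adjusted p of 0.0499. Dusp4 and Dusp6, which ERK signalling is also known to induce, moved the same way as the called genes of this list. Dusp1 and Errfi1, which growth factors induce too, moved the other way. ERK activity was not measured here, and whether it bears on any of these changes was not tested. No gene of these 7 lists was called in the comparison of the 2 times.

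**Figure D5:**
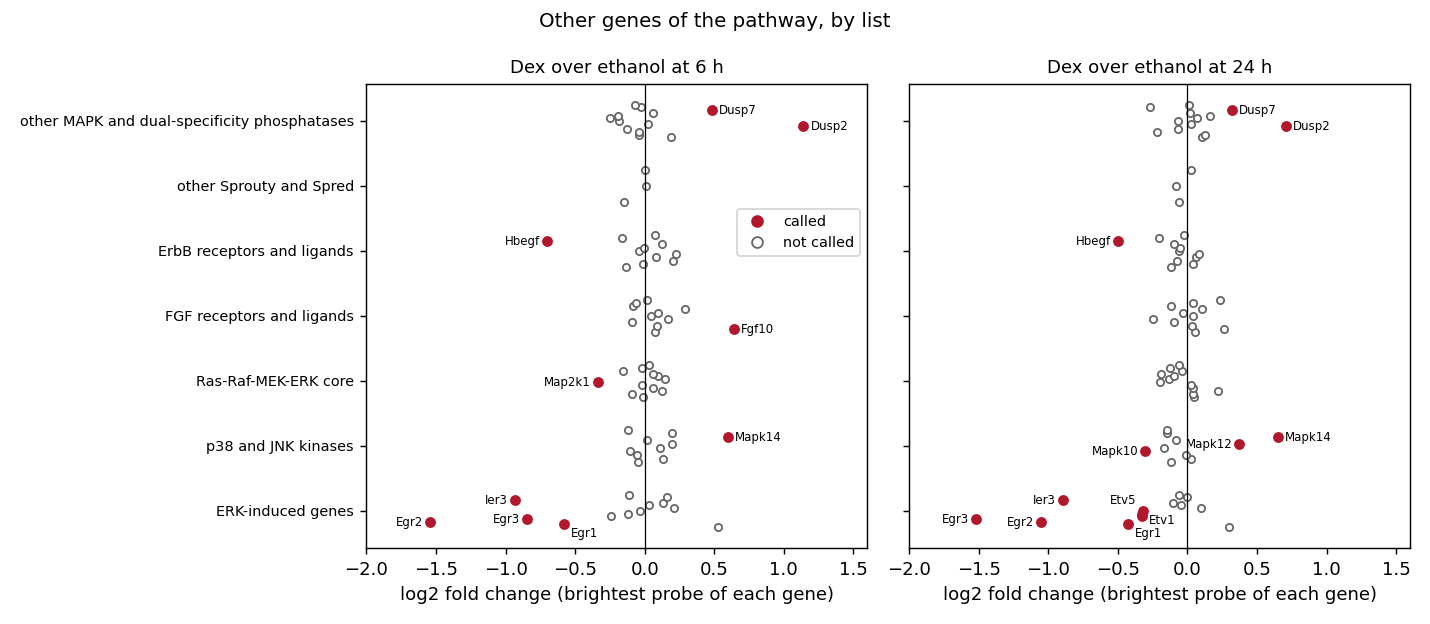
Log2 fold change of Dex over ethanol (horizontal axis) at 6 h and 24 h for other genes of the pathway, 1 point per gene by its brightest probe, grouped by list (vertical axis) and filled where called. The called ERK-induced genes all lie left of 0, between -1.55 and -0.32, and the called phosphatases Dusp2 and Dusp7 lie right of it.

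For each member whose brightest probe was called at both times (Errfi1, Dusp1 and Dusp4, but not Dusp6, whose brightest probe was called at 24 h alone), the genes with the most similar profile were found by Pearson's r over the 18 arrays, after each time was centred, among 19057 genes. These correlations carry no p, since the arrays fall into Dex and ethanol groups and the genes share that difference. Closest to Errfi1 were Spsb1 (r = 0.990), Pld1 (0.985) and Ehd3 (0.985), whose log2 fold changes at 6 h were 1.07, 1.15 and 1.13. Nearest to Dusp1 were Ccn2 (r = 0.976), Sgk1 (0.974) and Npy1r (0.969), with 1.87, 1.71 and 1.25 at 6 h. For Dusp4 these were Rai14 (r = 0.962), Plscr1 (0.958) and Rec114 (0.940), with -0.49, -0.51 and -0.44 at 6 h. Each of the 9 genes was called in the direction of its member at 6 h and at 24 h. Their choice by likeness to a called member on the same arrays makes this likely, so it is not separate evidence.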

How the data were processed

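Total RNA was hybridised to 18 arrays, placed in 4 groups by their titles. The deposited values are linear probe intensities, pre-processed by the authors with lumi, per the submitters' processing notes. Its version, background correction and normalization were not given in the sources at hand. Log2 values had been planned for, and each linear intensity was therefore log2-transformed (pseudocount 0). One mean per group was fitted to all 45281 probes in limma 3.58.1 (lmFit, eBayes; R 4.3.3), and Dex was compared with ethanol at 6 h, at 24 h and between times, with Benjamini-Hochberg adjustment over all probes. Within groups, deviations lacked 1 direction at 6 h and 3 at 24 h (each under 0.01% of the spread of probes with a mean log2 value over 12). These entered as covariates, leaving 10 residual degrees of freedom in place of 14, so that directions without spread were not counted as replication. The fit was also run on simulated data built to lack the same directions, and the outcome is not given here. Such a run cannot test the unknown processing of the real arrays.

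Of the probes, 34885 had 1 gene symbol, 18 several and 10378 none, and symbols are those of the platform annotation, which can be old. Pathway genes are represented by their brightest probe. Where that probe read near the array median, a change in the gene may have gone undetected. The text names every member probe, of each list the 2 genes with the smallest p in a Dex comparison, and the 3 genes most like each member whose brightest probe was called at both times. Further called list genes, and some uncalled ERK-induced genes, are named with their counts, as chosen after their values were seen. The members, lists, motifs and tests were chosen with earlier results of these data known. Within a group, arrays correlated at 0.992 or more and no pair held the same values. The number of arrays limits the precision. Detection values, chips and dates were not used here. Alternatives tried were no covariates, array weights, quantile normalization within a time, normexp with an offset of 50, a pseudocount of 16, dim probes left out, 1 probe per gene, a replicate block and arrays left out. Plots were made with matplotlib 3.10.9.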

Additional observations from a re-analysis of the deposited data

Results flagged for a closer look

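In 4 of the 60 combinations of probe and group tested, 1 array stood apart from the rest of its group, with a gap to its neighbour larger than Dixon's limit for a group of that size, a limit that chance passes in about 5% of groups. The Errfi1 probe ILMN_2714031 read 6932.2 on Dex array 4 at 6 h, below the other 3 Dex arrays, and 2046.0 on ethanol array 3 at 6 h, below the other 3 ethanol arrays. Without Dex array 4 or without ethanol array 3 the rise of Errfi1 was still called. The Dusp5 probe ILMN_2531737 read 176.3 on ethanol array 4 at 6 h, below the rest of that group. The Dusp4 probe ILMN_2608995 read 103.7 on Dex array 5 at 24 h, above the rest of that group, and this probe was not called with or without that array.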

How the results depend on the processing

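Each call of Errfi1, Dusp1 and ILMN_2450767 of Dusp4 at both times, of ILMN_2689731 of Dusp4 and ILMN_2925711 of Dusp6 at 24 h, and of ILMN_1248537 of Dusp6 at 6 h was kept under each alternative that tested the probe. The call of ILMN_1248537 at 24 h was lost under 10 of them, as given in the report. Without the covariates for missing directions, ILMN_2689731 at 6 h and ILMN_2870965 at 24 h were also called (limma adjusted p 0.0475 and 0.0472), and the counts over all probes were 2836 at 6 h, 5726 at 24 h and 1675 for the difference between times, against 1378, 2842 and 371. With 1 probe per gene, and so fewer features tested, they were 850, 1694 and 232. Over all settings but left-out arrays, 3 to 5 member probes were called at 6 h, 4 to 7 at 24 h and 0 for the difference. The setting with 1 probe per gene tests only 1 probe for each of the 9 measured members, in place of all 15. Fewer member probes could therefore be called in it.

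Correlations between the deviations of same-numbered Dex and ethanol arrays were -0.11 to 0.17 at 6 h and -0.91 to -0.18 at 24 h (-0.91, -0.75 and -0.74 for numbers 1 to 3). Same-numbered arrays 1 to 3 thus deviated in opposite directions at 24 h, and numbers 4 and 5 did so weakly (-0.31 and -0.18). Of the 18 arrays, 2 correlated best with their own number. The cause was not tested. Since the normalization is not known, these correlations cannot tell whether the samples were paired. A replicate block called 1931, 3821 and 904 probes, and 4 and 6 member probes. Leaving out arrays gave 1130 to 1775 calls at 6 h, 1616 to 3548 at 24 h (1616 without arrays 1 and 2 of both groups, chosen after seeing the data) and 308 to 637 for the difference (323 to 637 with single arrays left out, with 637 without ethanol array 1 and 594 without Dex array 4 at 6 h).

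Reversals touched only values that were not called, all near 0. Array weights gave -0.0011 for Spry2 and 0.018 for Spry4 at 24 h, and 0.0122 for Spry4 in the difference. Leaving out single arrays at 6 h gave -0.0609 to 0.0252 for ILMN_2608995, -0.11 to 0.0032 for Dusp5, -0.143 to 0.0001 for ILMN_2701321, -0.0411 to 0.0023 for Spry2 and -0.0284 to 0.0459 for Spry4. At 24 h it gave -0.0285 to 0.0281 for ILMN_2678724, -0.0141 to 0.051 for Spry2 and -0.0479 to 0.0339 for Spry4. For the difference it gave -0.102 to 0.0927 for ILMN_2450767, -0.0434 to 0.0693 for Dusp5, -0.0531 to 0.0288 for Spry4 and -0.0959 to 0.0566 for Errfi1. Without both arrays numbered 1 at 24 h, values were -0.035 for Spry2 and 0.0701 for Spry4 at 24 h, and -0.0535 for ILMN_2450767, -0.0108 for Spry2 and 0.065 for Spry4 in the difference. Without arrays 1 and 2 they were 0.0717 for Dusp5, -0.0037 for ILMN_2678724, -0.0373 for Spry2 and 0.0564 for Spry4 at 24 h, and -0.0467 for ILMN_2450767, -0.0131 for Spry2 and 0.0513 for Spry4 in the difference. The causes were not tested. Dim probes limit what can be detected.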
